A study of Mus musculus with 12 samples.

Results

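Plasma cells are the antibody-secreting end state of the B cell lineage, and 10 genes tied to their identity and to their secretory work were followed in the blood and spleen of mice with and without nuclear myosin 1 (NM1). The genes were taken by name: Jchain, Sdc1, Xbp1, Prdm1, Irf4, Mzb1, Tnfrsf17, Derl3, Fkbp11 and Pou2af1. All 10 were present among the 46603 gene identifiers counted, of which 46091 matched a gene symbol. NM1 is a nuclear form of the motor protein encoded by Myo1c. The mice were NM1 KO or NM1 wild type (WT), all on a C57/Bl6 background, 8 months old and given no treatment that the labels name. Each of the 4 groups (KO spleen, WT spleen, KO blood and WT blood) held 3 RNA-seq libraries, 12 in all. Spleen RNA came from a piece of about 5 mm3 at the tip of the organ, so a group describes that tip. Blood was drawn from the submandibular vein. The labels name no cell type or promoter for the KO, and they do not say whether libraries of 1 group came from separate mice, so the p-values measure the spread between libraries, which may be technical.

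When a B cell becomes a plasma cell, the transcription factors IRF4, BLIMP-1 (from Prdm1) and XBP1 replace the B cell programme held by PAX5, BACH2 and BCL6. XBP1 enlarges the endoplasmic reticulum and its folding and export machinery, which antibody secretion needs, and the J chain links IgM and IgA units into polymers before they leave the cell. In the adult mouse, plasma cells form in the spleen and lymph nodes, lodge in the splenic red pulp and bone marrow, and are rare in circulating blood.

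Promoter sequence is printed for 3 of the genes: Jchain, whose level differed most between libraries, and Derl3 and Pou2af1, the only members in which a searched motif was found. The stretches are from RefSeq (GRCm38.p6), written 5′ to 3′ along the transcript and ending just before its start; capitals mark a motif match. Jchain lies at chr5:88527898-88528077 on the minus strand, Derl3 at chr10:75893218-75893397 on the plus strand, and Pou2af1 at chr9:51213570-51213689 on the plus strand.
Jchain: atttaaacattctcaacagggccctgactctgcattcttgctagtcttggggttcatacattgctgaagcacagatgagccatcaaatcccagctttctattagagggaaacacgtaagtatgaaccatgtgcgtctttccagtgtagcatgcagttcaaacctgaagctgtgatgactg
Derl3: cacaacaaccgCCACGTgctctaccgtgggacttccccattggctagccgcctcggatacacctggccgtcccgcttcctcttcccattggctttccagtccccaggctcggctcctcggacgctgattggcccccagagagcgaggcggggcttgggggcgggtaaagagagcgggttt
Pou2af1: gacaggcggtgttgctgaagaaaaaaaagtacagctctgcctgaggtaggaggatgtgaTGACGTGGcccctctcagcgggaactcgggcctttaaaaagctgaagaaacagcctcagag
Of the 10 members, 9 had a RefSeq promoter and Mzb1 did not. Both strands of the 250 bases before the start were searched for TGACGTGG, a site bound by XBP1 and ATF6, for ACGTGG, the shorter core held within it, and for ATGCAAAT, the octamer that Oct factors occupy together with the Pou2af1 protein. Pou2af1 held TGACGTGG at bases 61 to 54 before the start on the sense strand, and with it the core. Derl3 held the core alone at bases 169 to 164 on the antisense strand, which reads CCACGT in the printed strand. Jchain held none of the 3 motifs, and no member held the octamer. Among the 27025 genes with a RefSeq promoter, 0.603% held TGACGTGG, 7.84% held ACGTGG and 1.81% held ATGCAAAT. Of the 50 secretory pathway and unfolded protein response genes with a promoter, 2 held TGACGTGG and 18 held the core. A match describes the letters only, and no data on binding were analysed here.

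The libraries fell into separate kinds that cut across the tissue labels. Of the 13 globin genes, the summed counts took 0.846% to 5.90% of counts in 6 libraries, called globin-poor here, and 48.9% to 56.1% in the other 6, called globin-rich. Globin-poor were the libraries labelled spleen KO 01, spleen KO 04, spleen WT 01, blood KO 04, blood WT 03 and blood WT 04. Globin-rich were those labelled spleen KO 03, spleen WT 02, spleen WT 04, blood KO 02, blood KO 03 and blood WT 01. Each kind held 3 KO and 3 WT libraries, and 3 labelled spleen and 3 labelled blood. Markers of the tissues followed globin rather than the labels: the summed level of 9 red pulp macrophage markers was 1246 to 1855 CPM (counts per 1000000 counts, with globin left out) in globin-poor and 46.3 to 178 in globin-rich libraries, and that of 8 platelet markers was 250 to 464 and 2591 to 8066. Hence 3 of the 6 libraries labelled blood had the markers of red pulp, and 3 of the 6 labelled spleen had those of platelets. Total counts were 23140497 to 28243206 in globin-poor and 9317793 to 12096089 in globin-rich libraries, and 3 counts amount to between 0.109 and 0.733 CPM. Kind is a split made from the data, not a group of the study. Myo1c ranged from 128 to 200 CPM in KO and from 58.5 to 219 CPM in WT libraries, but gene-level counts join NM1 with the other Myo1c forms and so check nothing about the deletion.

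Per kilobase of exon, which allows genes to be compared with each other, the order of the 10 genes differed between the kinds. In globin-poor libraries Jchain came first with a median of 286 CPM per kb (range 155 to 599), ahead of Mzb1 at 119 (75.0 to 214), Pou2af1 at 80.4 (45.7 to 125) and Xbp1 at 47.3 (26.5 to 87.4). Irf4 followed at 14.2, Derl3 at 6.83, Sdc1 at 4.90, Tnfrsf17 at 2.30, Fkbp11 at 1.513 and Prdm1 at 1.497 CPM per kb. The ranges of every pair of neighbours in that order overlapped, apart from Xbp1 above Irf4, and so did those of the last 3 genes with one another. In globin-rich libraries Pou2af1 led with a median of 59.8 CPM per kb (25.9 to 74.6), and Mzb1 had 23.0, Xbp1 16.4 and Irf4 8.56. Jchain stood sixth there at 1.09 CPM per kb (0.597 to 1.49), below Sdc1 at 1.85 and above Prdm1 at 0.375.

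**Figure D1:**
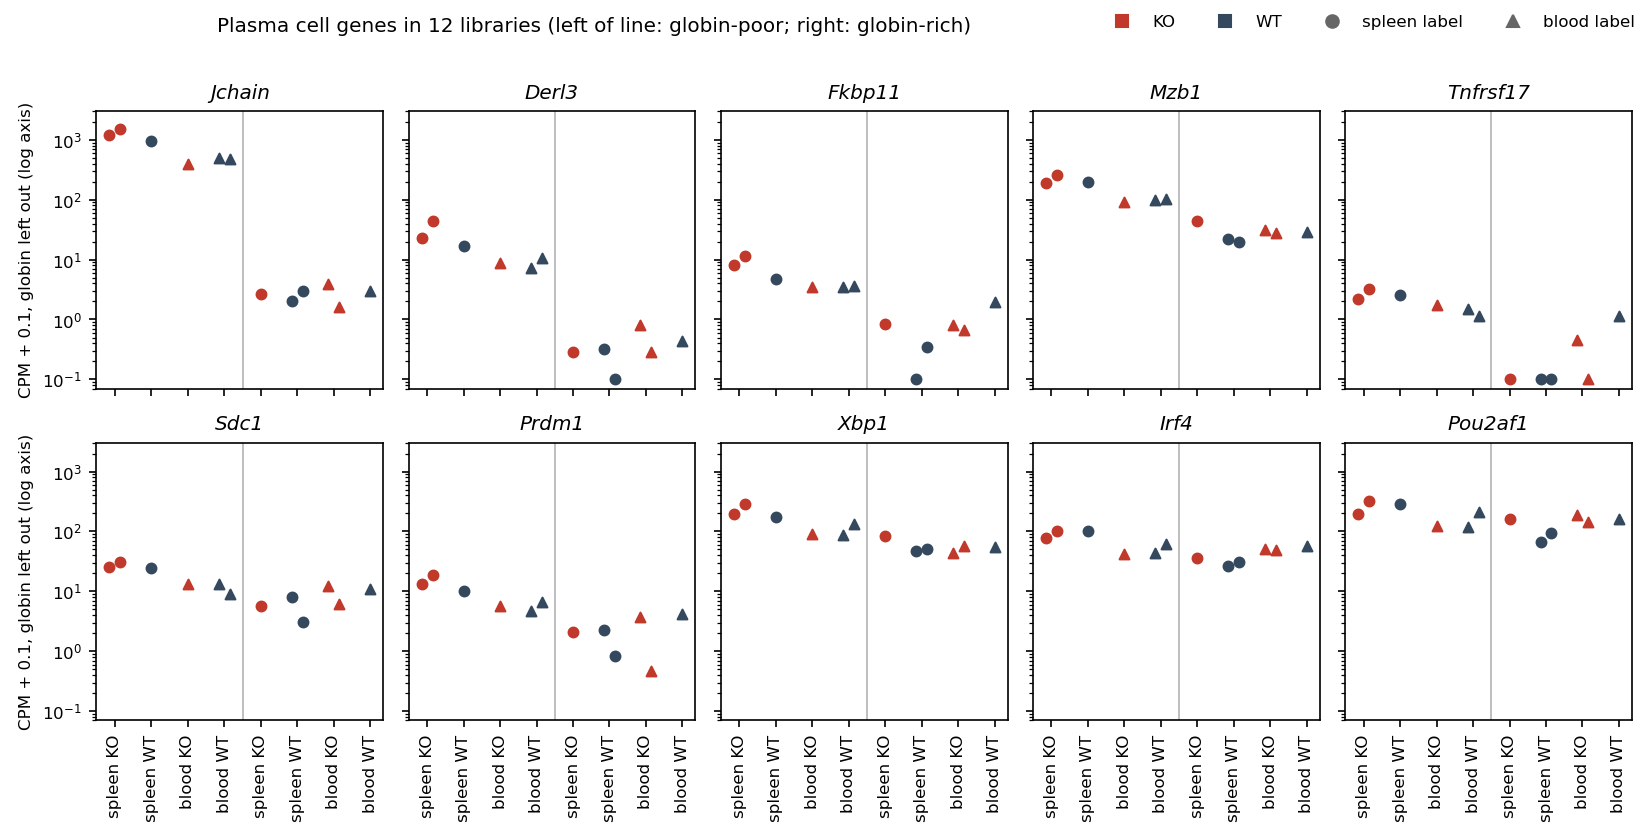
Level of each of the 10 genes in each of the 12 libraries, as CPM with globin left out plus 0.1 on a log axis; 1 point is 1 library, red KO and dark WT, circles labelled spleen and triangles labelled blood, with globin-poor libraries left of the grey line and globin-rich libraries right of it. Jchain lies at 390 CPM or more in every globin-poor library and at 3.76 CPM or less in every globin-rich one, while Irf4 and Pou2af1 overlap between the kinds.

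Jchain, which encodes the joining chain of polymeric antibody, was about 263 times as abundant in globin-poor as in globin-rich libraries by the median. It had 1188 and 1507 CPM in the globin-poor KO spleen libraries, 946 CPM in the globin-poor WT spleen library, 390 CPM in the globin-poor KO blood library, and 496 and 469 CPM in the globin-poor WT blood libraries. Among globin-rich libraries it had 2.56 CPM in KO spleen, 1.96 and 2.93 CPM in WT spleen, 3.76 and 1.503 CPM in KO blood, and 2.92 CPM in WT blood, which were 8 to 21 counts. The lowest globin-poor library was 104 times as high as the highest globin-rich one, so the kinds did not overlap. In the fit of all 12 libraries with tissue label and genotype as terms, the log2 difference of globin-poor over globin-rich was 7.06 ± 0.28 (SE; edgeR quasi-likelihood test, Benjamini-Hochberg adjusted p = 2.2e-10).

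Derl3 encodes a protein of the channel that removes misfolded proteins from the endoplasmic reticulum. Globin-poor libraries had 23.1 and 44.7 CPM in KO spleen, 16.6 CPM in WT spleen, 8.76 CPM in KO blood, and 7.26 and 10.6 CPM in WT blood. In globin-rich libraries Derl3 had 0.183 CPM in KO spleen, 0.218 and 0 CPM in WT spleen, 0.715 and 0.188 CPM in KO blood, and 0.343 CPM in WT blood. At most 4 reads lay behind each of these low values, and the kinds did not overlap. The log2 difference was 4.72 ± 0.47 (edgeR, adjusted p = 1.7e-06).

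Mzb1, an endoplasmic reticulum chaperone of B1, marginal zone and plasma cells that helps assemble and secrete antibody, was higher in globin-poor libraries by a smaller margin. Its lowest, median and highest levels were 91.1, 144 and 260 CPM in globin-poor and 19.6, 28.0 and 43.9 CPM in globin-rich libraries. The kinds did not overlap, and the log2 difference was 1.26 ± 0.15 (edgeR, adjusted p = 1.1e-05). Fkbp11, a peptidyl-prolyl isomerase of secretory cells, had a lowest, median and highest level of 3.398, 4.09 and 11.4 CPM in globin-poor and 0, 0.639 and 1.89 CPM in globin-rich libraries. It also did not overlap (log2 difference 1.87 ± 0.55, edgeR adjusted p = 0.0097). Tnfrsf17, which encodes BCMA, the receptor through which APRIL keeps plasma cells alive, was scarce throughout, with 1.02 to 3.15 CPM in globin-poor libraries. It had 0 counts in 4 of the 6 globin-rich libraries, where 3 counts would be 0.548 to 0.733 CPM, and 2 and 6 counts in the other two. Its adjusted p was 0.053 (edgeR, log2 difference 2.01 ± 0.84), and DESeq2 called it higher (adjusted p = 0.026).

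The regulators and the surface marker moved less. Prdm1, the gene of BLIMP-1, had 4.59, 8.35 and 18.96 CPM (lowest, median, highest) in globin-poor and 0.376, 2.09 and 4.12 CPM in globin-rich libraries, with no overlap. Xbp1, the activator of secretory genes, had 86.0, 154 and 284 CPM in globin-poor and 43.8, 53.4 and 82.3 CPM in globin-rich libraries, also without overlap; gene-level counts do not show how much of its RNA was spliced to the active form. Sdc1, the gene of CD138, the surface proteoglycan by which plasma cells are sorted, had 9.04, 18.7 and 30.6 CPM in globin-poor and 2.93, 7.03 and 12.2 CPM in globin-rich libraries, and its ranges overlapped. Irf4, needed both for activated B cells and for plasma cells, had 42.0, 69.8 and 102 CPM in globin-poor and 26.1, 42.0 and 57.1 CPM in globin-rich libraries. Pou2af1, the B cell coactivator of octamer-binding factors, had 117, 205 and 318 CPM in globin-poor and 66.2, 152 and 190 CPM in globin-rich libraries. The ranges of Irf4 and Pou2af1 overlapped as well. None of these 5 genes passed in the edgeR fit, where the log2 differences were 0.96 ± 0.44 for Prdm1 (adjusted p = 0.079), 0.31 ± 0.17 for Xbp1 (0.14), 0.14 ± 0.31 for Sdc1 (0.72), −0.37 ± 0.21 for Irf4 (0.16) and −0.47 ± 0.21 for Pou2af1 (0.076).

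Across the 10 genes, 4 rose in globin-poor libraries (Jchain, Derl3, Mzb1 and Fkbp11) and none fell, where 26.8% of the 17554 genes tested were called higher and 29.2% lower. The median log2 difference was 1.11 for the 10 genes and −0.02 for all genes tested. In CPM, 6 of the 10 genes had every globin-poor library above every globin-rich one, against 43% of all genes. The scale matters for these counts. The trimmed mean of M values (TMM) factors were 1.30 to 1.64 in globin-poor and 0.513 to 0.849 in globin-rich libraries. Scaled to library size without them, the median of all genes moved to a log2 difference of 1.05, and 57.3% of genes were called higher. On that scale 9 of the 10 genes passed, with a median of 2.17, and the signs of Irf4 and Pou2af1 turned, to 0.75 and 0.63. Jchain and Derl3 stood far above the median of all genes on both scales. Without the library blood KO 03, with TMM, 7 of the 10 passed, with Prdm1, Tnfrsf17 and Xbp1 added. Calls over all genes rose as well, to 10918 without that library, against 9816 of 17554 with all 12 libraries. In bulk tissue, fewer cells of a type and less RNA per cell cannot be told apart.

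**Figure D2:**
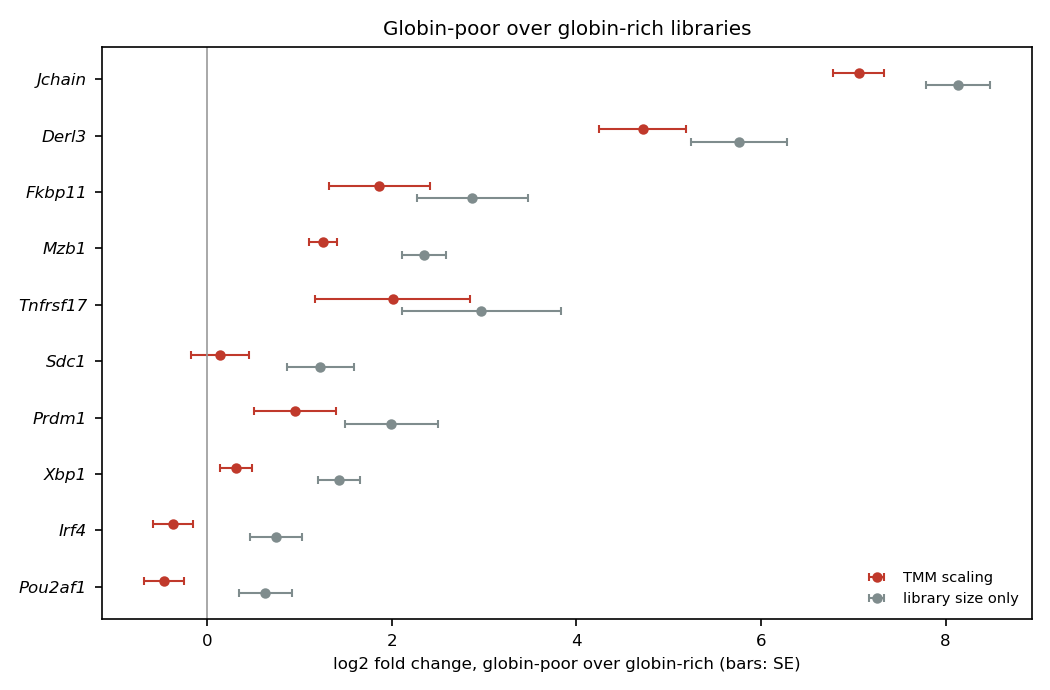
Log2 fold change of each gene, globin-poor over globin-rich libraries (horizontal axis; bars, SE), with TMM scaling in red and scaling to library size alone in grey, from the edgeR fit of 12 libraries. Jchain at 7.06 and Derl3 at 4.72 lie farthest to the right with TMM, and Irf4 and Pou2af1 change sign between the scalings.

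Ratios inside a library do not depend on scaling. Per 100 counts of Pou2af1, which B cells and plasma cells share, Jchain had 220 to 604 counts in globin-poor and 1.03 to 3.13 in globin-rich libraries. Derl3 had 4.98 to 14.0 in globin-poor and 0 to 0.376 in globin-rich libraries, and Mzb1 had 47.2 to 95.6 and 16.3 to 33.5. These 3 ratios did not overlap between the kinds, and neither did that of Fkbp11 (1.61 to 4.135 and 0 to 1.16). Irf4 had 28.4 to 40.2 counts per 100 of Pou2af1 in globin-poor and 22.2 to 39.5 in globin-rich libraries, so those ranges nearly coincide. Xbp1 (60.5 to 98.8 and 23.0 to 72.4) and Sdc1 (4.24 to 12.7 and 3.13 to 12.2) overlapped. So did Prdm1 (3.08 to 6.79 and 0.257 to 3.29) and Tnfrsf17 (0.480 to 1.31 and 0 to 0.633). Set against Cd79a, a subunit of the B cell receptor, Jchain had 45.8 to 137 counts per 100 in globin-poor and 0.293 to 0.753 in globin-rich libraries. Pou2af1 had 11.9 to 28.3 counts per 100 of Cd79a in globin-poor and 20.1 to 30.6 in globin-rich libraries. Relative to either B cell gene, Jchain was far lower in the globin-rich libraries.

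**Figure D3:**
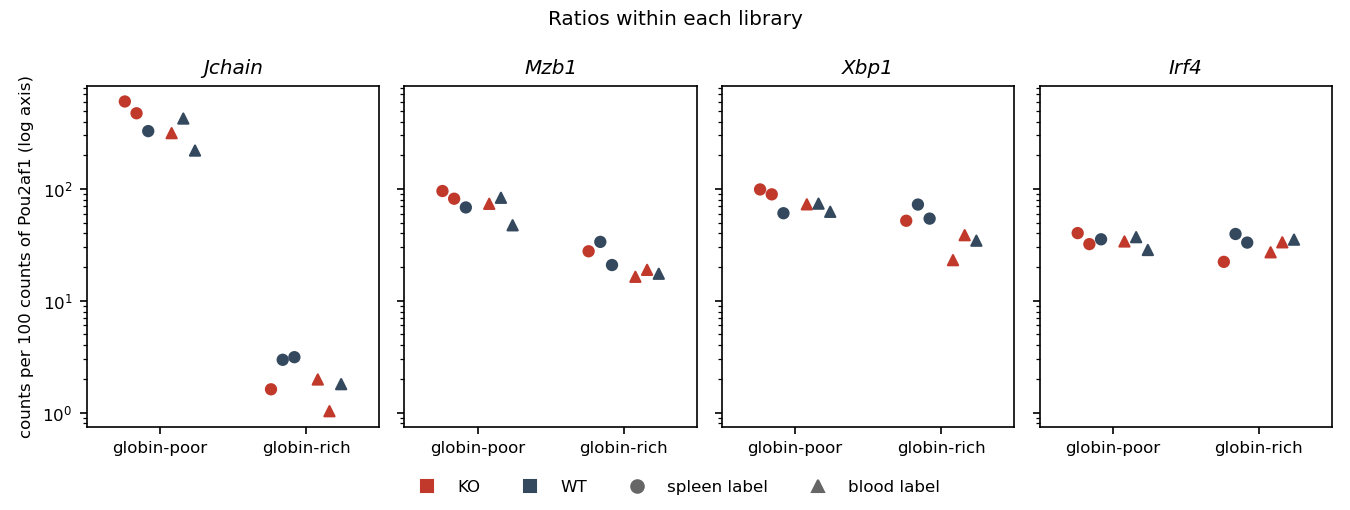
Counts of Jchain, Mzb1, Xbp1 and Irf4 per 100 counts of Pou2af1 in the same library (log axis); 1 point is 1 library, red KO and dark WT, circles labelled spleen and triangles labelled blood, in the globin-poor (left) and globin-rich (right) libraries. Jchain spans 220 to 604 in globin-poor and 1.03 to 3.13 in globin-rich libraries, while Irf4 spans 28.4 to 40.2 and 22.2 to 39.5.

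Most genes of the wider secretory pathway and unfolded protein response were higher in globin-poor libraries. Of 64 genes in that list, 41 rose and 8 fell (edgeR, adjusted p under 0.05), where 26.8% of all genes were called higher and 29.2% lower. The median log2 difference of the list was 0.69. With scaling to library size alone 56 rose and 2 fell, where 57.3% of all genes were called higher. Among those that rose were Manf, a stress-induced secreted factor of the endoplasmic reticulum (2.32 ± 0.20), Hsp90b1, which encodes the chaperone GRP94 (1.82 ± 0.16), Creld2 (1.96 ± 0.18) and Ssr2, a subunit of the translocon-associated complex (1.49 ± 0.14). Sec61g, a subunit of the protein channel itself, went the other way, at 6.85 to 19.8 CPM in globin-poor and 164 to 228 CPM in globin-rich libraries (−4.99 ± 0.37). Selenok (−2.35 ± 0.23), Eif2ak3, the stress sensor PERK (−1.24 ± 0.19), and Edem1, which acts in the removal of misfolded glycoproteins (−1.08 ± 0.15), also fell; scaled to library size alone, Sec61g and Selenok were still called lower, Eif2ak3 was −0.18 and Edem1 turned to 0.03, neither called. The summed level of the list was 8784 to 11620 CPM in globin-poor and 2789 to 4416 CPM in globin-rich libraries.

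Antibody genes differed by class. Of 11 immunoglobulin constant genes tested, 9 rose in globin-poor libraries and 1 fell (edgeR, adjusted p under 0.05), against 10 and 0 with scaling to library size alone. Of all genes, 26.8% were called higher and 29.2% lower, and 57.3% higher with library size alone. Igha, the heavy chain of IgA, had 743 to 2632 CPM in globin-poor and 7.14 to 17.8 CPM in globin-rich libraries (log2 difference 5.79 ± 0.28). Ighg2c, of IgG2c, had 53.6 to 1442 CPM and 0.183 to 1.22 CPM (8.57 ± 0.47). Ighm, of IgM, which naive B cells and plasma cells both make, had 2644 to 7261 CPM in globin-poor and 555 to 1284 CPM in globin-rich libraries. Ighd, of IgD, a mark of naive mature B cells, had 439 to 843 CPM in globin-poor and 252 to 682 CPM in globin-rich libraries, and was the gene that fell (−0.80 ± 0.18); scaled to library size alone its value turned to 0.29 and was not called.

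Of 20 other plasma cell genes, 5 rose and 5 fell in globin-poor libraries (edgeR, adjusted p under 0.05; 12 rose and 2 fell with scaling to library size alone). These shares lie near those of all genes, of which 26.8% were called higher and 29.2% lower, and 57.3% higher with library size alone. Bhlha15, the secretory cell factor MIST1 (2.21 ± 0.66), Creb3l2 (1.89 ± 0.26), Eaf2 (1.54 ± 0.48) and the protein disulfide isomerase gene Txndc5 (0.63 ± 0.15) rose. Tent5c, a poly(A) polymerase that plasma cells and erythroid cells both use, had 122 to 748 CPM in globin-poor and 11480 to 16400 CPM in globin-rich libraries (−6.43 ± 0.48), and made up most of the list's summed level there. Ell2, an elongation factor that promotes secretory antibody mRNA, fell by 2.50 on the log2 scale. Tent5c and Ell2 were the 2 genes called lower on both scales.

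Mature B cell genes went mostly the other way on the TMM scale. Of 18, 1 rose (Cr2, the complement receptor of follicular and marginal zone B cells and of follicular dendritic cells, 1.06 ± 0.19) and 9 fell in globin-poor libraries, whereas 11 rose and 0 fell with scaling to library size alone. Of all genes, 26.8% were called higher and 29.2% lower with TMM, and 57.3% higher with library size alone. Among those that fell with TMM were Fcer2a, which encodes CD23 of follicular B cells (−1.40 ± 0.18), Cd22 (−0.87 ± 0.20), Bach2 (−1.43 ± 0.22) and Pax5 (−0.65 ± 0.18). Scaled to library size alone, Cd22 and Pax5 turned to 0.22 and 0.43, Fcer2a and Bach2 were −0.30 and −0.35, and none of these was called. Bach2 had 41.1 to 98.0 CPM in globin-poor and 42.4 to 137 CPM in globin-rich libraries, which overlap. Bcl6, the germinal centre repressor of Prdm1, was lower with TMM as well (−1.39 ± 0.18, edgeR adjusted p = 1.9e-05; −0.29 and not called with library size alone), at 22.4 to 62.2 CPM and 32.2 to 80.1 CPM.

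Other cell types differed between the kinds in both directions. The summed level of 10 stromal and endothelial markers was 1184 to 2462 CPM in globin-poor and 126 to 216 CPM in globin-rich libraries. Among the ligands that keep plasma cells in place and alive, Cxcl12, made by stromal cells, had 219 to 427 CPM and 0 to 4.57 CPM (7.09 ± 0.56), and Cd86 (2.03 ± 0.22) and Cd80 (1.38 ± 0.34) rose too. Il6, a cytokine that supports plasma cells, fell (−4.62 ± 1.08, edgeR adjusted p = 0.0022), and was −3.51 and called with library size alone. All 6 ligands of that list together summed to only 6.20 to 19.7 CPM in globin-rich libraries, so Il6 was low even where it was higher. Plasmacytoid dendritic cells share several secretory genes with plasma cells, and their 9 markers summed to 806 to 1722 CPM in globin-poor and 180 to 463 CPM in globin-rich libraries. By the edgeR test 7 were higher and 1 lower, where 26.8% of all genes were higher and 29.2% lower. Siglech had 10.2 to 22.9 CPM and 0 to 1.31 CPM. Of 13 T cell markers, 4 were called lower in globin-poor libraries with TMM (Cd6, Cd8b1, Cd28 and Cd3e), a share near the 29.2% of all genes. With library size alone 11 were called higher, where 57.3% of all genes were. The summed level of the T cell markers was 747 to 1788 CPM in globin-poor and 426 to 774 CPM in globin-rich libraries, which overlap. Of 9 neutrophil markers, 3 were called higher and 5 lower with TMM, among the lower Mmp9, Mmp8, S100a8 and Retnlg. The summed level of the 9 was 506 to 974 CPM in globin-poor and 540 to 3783 CPM in globin-rich libraries, which overlap. The part of these cells in the members' differences was not tested.

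The comparison of the tissue labels is given inside each kind. No member passed the edgeR test of whether the spleen over blood difference itself differed between the kinds. An unadjusted p under 0.05 was found there for 8 of the 10 members, and for 3202 of 19116 genes. In globin-poor libraries, 9 of the 10 genes were higher in all 3 libraries labelled spleen than in all 3 labelled blood, against 24.7% of all genes, and Pou2af1 was the exception. Jchain averaged 1214 ± 281 CPM in those labelled spleen and 452 ± 54.8 CPM in those labelled blood (SD, n = 3 each), with a log2 difference of 1.08 ± 0.26 (edgeR, adjusted p = 0.062). Mzb1 gave 0.84 ± 0.18 (adjusted p = 0.058), Irf4 0.75 ± 0.17 (0.058), Derl3 1.12 ± 0.33 (0.085) and Prdm1 0.90 ± 0.26 (0.083) in the same edgeR fit. None of the 10 passed among globin-poor libraries, where 9 of 17088 genes (0.0527%) did. In that edgeR fit 8 of the 10 had an unadjusted p under 0.05, as did 5080 of the 17088 genes. Spleen KO 04 had the highest level of 9 of the 10 genes, and Irf4 was highest in spleen WT 01, with 102 CPM in that library and in spleen KO 04. Summed immunoglobulin constant genes (16460 to 26880 CPM in spleen, 7126 to 9234 CPM in blood) and T cell markers (1131 to 1788 CPM and 747 to 930 CPM) were higher in those labelled spleen as well. Germinal centre genes went the other way, with a summed level of 243 to 797 CPM in spleen and 1217 to 1493 CPM in blood, most of it the proliferation gene Mki67 (144 to 722 CPM in spleen, 1173 to 1418 CPM in blood). The part of these cells was not tested.

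In globin-rich libraries the labels separated 1 of the 10 genes, Irf4, which lay below every blood library in all 3 spleen libraries. Of all genes, 7.34% had that order, so 1 of 10 lies near that share. Irf4 had 35.3 CPM in KO spleen and 26.1 and 31.0 CPM in WT spleen, against 51.5 and 48.6 CPM in KO blood and 57.1 CPM in WT blood. The log2 difference of spleen over blood was −0.57 ± 0.20 (edgeR, adjusted p = 0.33), where 1 of 13055 genes (0.00766%) passed. For Irf4 the difference between the kinds in the spleen over blood effect was 1.34 ± 0.27 (edgeR interaction, adjusted p = 0.054). DESeq2 passed it, among 966 of 19116 genes. By edgeR 28 genes (0.146%) passed in all, a count that ran from 0 to 753 with 1 library left out. Jchain gave 1.03 ± 0.44 in the same edgeR test (adjusted p = 0.24). With all 12 libraries and kind as a term, spleen over blood was 0.82 ± 0.24 for Jchain (edgeR adjusted p = 0.23), 0.64 ± 0.17 for Xbp1 (0.19) and 0.56 ± 0.15 for Mzb1 (0.19). None of the 10 passed, with 6 of 17554 genes (0.0342%) called. An unadjusted p under 0.05 was found for 3 members, among 1775 of all genes by the edgeR test. DESeq2 called those 3, Jchain, Xbp1 and Mzb1, among 352 of the 17554 genes.

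The study asked how loss of NM1 changed blood and spleen. None of the 10 genes passed in spleen or in blood, and neither did any other gene: 0 (0%) of 15401 in spleen and 0 (0%) of 15001 in blood by edgeR. Unadjusted p-values under 0.05 numbered 359 in spleen and 26 in blood, none of them members, and DESeq2 also called 0 genes in each tissue. The kinds were uneven across genotypes, with 2 globin-poor libraries of 3 in KO spleen and 1 of 3 in WT spleen, and 1 of 3 in KO blood and 2 of 3 in WT blood. Jchain averaged 899 ± 793 CPM in KO spleen and 317 ± 545 CPM in WT spleen, and 132 ± 224 CPM in KO blood and 322 ± 277 CPM in WT blood (SD, n = 3 each). The log2 difference of KO over WT was 1.52 ± 2.17 in spleen (edgeR adjusted p = 0.99) and −1.20 ± 2.00 in blood (adjusted p = 1). Derl3 gave 1.82 ± 1.64 in spleen and −0.69 ± 1.27 in blood. The difference of the KO effects between the tissues was 2.73 ± 3.24 for Jchain (edgeR interaction, adjusted p = 0.93), and 0 (0%) of 17554 genes passed, with 239 unadjusted p-values under 0.05, none of them members, and 0 calls by DESeq2. Each of these groups held libraries of both kinds, and with kind as a term the Derl3 difference in blood was 0.18.

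With kind and tissue label as terms over all 12 libraries, the KO difference of Jchain was smaller in size than in either tissue without kind. This did not hold for every member, as Derl3 was −0.69 in blood without kind. Mzb1 was 0.30 ± 0.15 (unadjusted p = 0.059, edgeR adjusted p = 0.90), Derl3 0.74 ± 0.42, Fkbp11 0.48 ± 0.54, Jchain 0.17 ± 0.24, Xbp1 0.18 ± 0.17 and Irf4 0.06 ± 0.21. Of the 10 genes, 9 had a value above 0 and Tnfrsf17 (−0.08 ± 0.75) did not. The median was 0.19, against −0.05 over all genes. Several of these signs depended on the libraries used. In those labelled spleen and globin-rich or blood and globin-poor alone, Jchain, Sdc1, Xbp1, Prdm1 and Irf4 were below 0 and Tnfrsf17 above it. No gene passed (0 of 17554, 0%); 816 had an unadjusted p under 0.05, none of them members, and DESeq2 called 1 gene, not a member. In the 4 lists nearest to the members (secretory, other plasma cell, immunoglobulin constant and mature B cell genes) none passed either. The smallest unadjusted p-values in them belonged to Creld2 (0.73 ± 0.18, unadjusted p = 0.0011, edgeR adjusted p = 0.90), Ighg2c (1.34 ± 0.40) and Igha (−0.75 ± 0.23).

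Inside the globin-poor libraries the genes were well counted. KO held 2 libraries labelled spleen and 1 labelled blood, and WT held 1 and 2. For 9 of the 10 genes every spleen library lay above every blood library, so KO and WT had to overlap. Pou2af1 overlapped too. No member had all 3 KO libraries above all 3 WT libraries, an order that 2.23% of genes had and those 9 could not take. Under the spleen label both KO libraries lay above the WT library for Jchain, Derl3, Fkbp11, Prdm1, Xbp1 and Sdc1. This did not hold for Irf4, Mzb1, Tnfrsf17 and Pou2af1. Under the blood label the KO library lay above both WT libraries for Tnfrsf17 alone. Under each label 1 genotype had 1 library only, and the share of all genes with either order was not counted. These orders therefore describe the libraries and do not set the members apart from other genes. The log2 differences of KO over WT with tissue label as a term were 0.61 ± 0.33 for Fkbp11, 0.59 ± 0.33 for Derl3, 0.17 ± 0.26 for Jchain and −0.21 ± 0.25 for Pou2af1, and the smallest adjusted p of a member was 0.74 (edgeR). No gene passed (0 of 17088, 0%); 808 had an unadjusted p under 0.05, none of them members, while DESeq2 called 9 genes and no member. Without the library spleen WT 01 the Jchain difference was −0.24. Ighg2c had 1184 and 1442 CPM in KO spleen against 420 CPM in WT spleen, and 229 CPM in KO blood against 103 and 53.7 CPM in WT blood, higher in KO under each label (1.65 ± 0.31, unadjusted p = 0.00079, edgeR adjusted p = 0.74). Igha had 1229 and 2160 CPM in KO spleen against 2632 CPM in WT spleen, and 743 CPM in KO blood against 1896 and 1264 CPM in WT blood, lower in KO under each label (−0.80 ± 0.32, edgeR unadjusted p = 0.036). The other IgG genes were mixed under the blood label. Ighg1 had 11.7 CPM in KO blood against 48.2 and 43.6 CPM in WT blood. Ighg2b had 149 CPM against 223 and 89.4 CPM. Ighg3, with 99.3 CPM against 20.0 and 84.2 CPM, had the order of Ighg2c. The share of all genes with these orders was not counted. Pancreatic acinar markers, among them genes of secretory granules, summed to 630 CPM in blood KO 04 and to 12.0 to 113 CPM in the other globin-poor libraries. Derl3 in blood KO 04, at 8.76 CPM, lay between its values in the globin-poor WT blood libraries. The part of pancreatic cells in the members' levels was not tested.

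Inside the globin-rich libraries 7 of the 10 genes were counted well enough to be tested; Tnfrsf17, Derl3 and Fkbp11 were not. Mzb1 had 43.9 CPM in KO spleen against 22.2 and 19.6 CPM in WT spleen, and 31.1 and 27.6 CPM in KO blood against 28.3 CPM in WT blood (log2 difference 0.31 ± 0.20, edgeR adjusted p = 0.67). Prdm1 gave −0.64 ± 0.99 on 2 to 24 counts per library. No gene passed there (0 of 13055, 0%), with 953 unadjusted p-values under 0.05, none of them members, and 11 calls by DESeq2, none of them members. Without the library blood WT 01, 389 genes passed, and without blood KO 02, 4 did; no member passed with any 1 library left out.

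**Figure D4:**
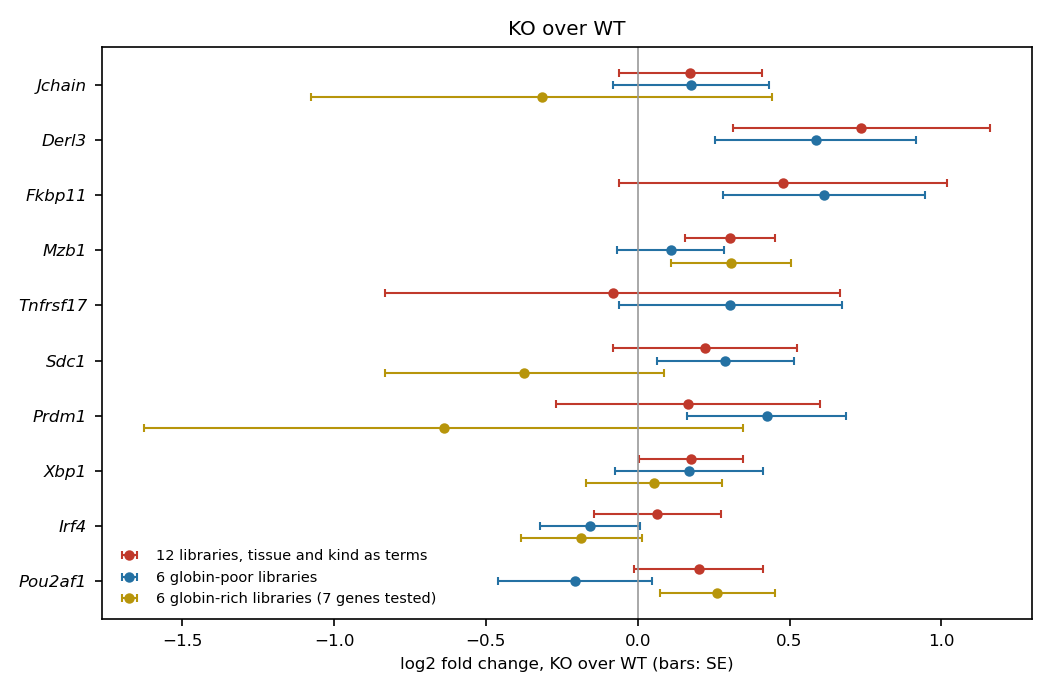
Log2 fold change of each gene, KO over WT (horizontal axis; bars, SE), in edgeR fits of all 12 libraries with tissue label and kind as terms (red), of the 6 globin-poor libraries (blue) and of the 6 globin-rich libraries (yellow, 7 genes). Derl3 at 0.74 and 0.59 and Fkbp11 at 0.48 and 0.61 have the highest values, and none of the points passed the adjusted test.

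Among the globin-poor libraries the genes whose levels tracked Jchain most closely included the plasma cell genes Bhlha15 and Txndc5. By Pearson's r of log2(CPM + 1) over the 6 libraries, across 14534 genes, Bhlha15 came first (0.993), followed by Mapk8 (0.992), Txndc5 (0.992), F2rl1 (0.991) and Atad3aos (0.988), with 1 immunoglobulin gene among them left out. Of the members, Mzb1 stood at 0.98, Prdm1 at 0.96, Derl3 and Xbp1 at 0.94, Sdc1 and Fkbp11 at 0.93, Irf4 at 0.89, Tnfrsf17 at 0.87 and Pou2af1 at 0.77. The 6 points share the split by label, so these values describe mainly that split. Bhlha15 had 8.45 to 18.7 CPM in globin-poor libraries labelled spleen and 2.25 to 3.71 CPM in those labelled blood. In globin-rich libraries, with 8 to 21 counts of Jchain in each, the genes nearest to it were B3glct (0.993), Gm36266 (0.981), Vta1 (0.980), Rdh13 (0.974) and Tnik (0.973), and of the 6 members with a mean of at least 1 CPM there the closest was Prdm1 at 0.64.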

How the data were processed

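RNA-seq libraries of blood and spleen from NM1 KO and WT mice were analysed from the raw counts per gene that the authors deposited, 1 table per library. Per the labels' protocols, 500 ng of total RNA entered a NEBNext Ultra II RNA library kit; the submitters' processing notes name Trimmomatic 0.36, HISAT2 2.0.4, SAMtools 0.1.19, HTSeq and the build GRCm38 (mm10), and the strand setting is not given in the sources used here. Identifiers were matched to GENCODE vM21, and by its exons no counted gene shared bases with a member.

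Levels are CPM, with the counts of 13 globin genes left out of the totals. Libraries over 25% globin were called globin-rich. Tests used edgeR 4.0.16 in R 4.3.3 (filterByExpr, TMM, robust quasi-likelihood F test) with Benjamini-Hochberg adjustment over all genes tested and a threshold of 0.05, tested on simulated data. Alternatives were DESeq2 1.42.0, no filter, library size alone, kind or replicate as a term, each library left out, and libraries split by label and kind. No pair of libraries agreed within sampling noise. The members and lists were chosen with earlier results of these data known; further genes are named by smallest p in each list, up to 4 in each direction, and by likeness to Jchain. Intervals of counts and floors cover counting error only.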

Additional observations from a re-analysis of the deposited data

How the results depend on the processing

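Jchain, Derl3 and Mzb1 were called higher in globin-poor libraries under each alternative that tested them, including those with 1 library left out. The count of members called in that comparison was 4, and it was 5 by DESeq2 and with globin kept, 7 without a filter, 9 with library size alone, and 4 to 7 with 1 library left out. With library size alone Irf4 was 0.75 and Pou2af1 0.63. For spleen over blood DESeq2 called 3 members, where edgeR called 0. For the difference of that effect between the kinds, 0 members were called by edgeR, 1 by DESeq2 and 0 to 2 with 1 library left out (2 without blood WT 04, 1 without spleen KO 01). The median of Jchain in globin-rich libraries was 1.22 CPM with globin counted in the total, against 2.74 CPM.

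Across all genes, spleen over blood gave 6 calls, 352 by DESeq2, 438 without a filter and 2 (without spleen KO 04) to 13 (without blood WT 03) with 1 library left out. Its difference between the kinds gave 28, against 966, 847, 2 (library size alone) and 0 (replicate block). That count was 753 without spleen KO 01, 716 without spleen KO 03, 507 without blood WT 04, 161 without blood KO 03 and 26 without spleen WT 02, and 0 to 2 without each of the other 7. KO over WT gave 0 calls over all libraries, 1 by DESeq2, 55 without a filter and 1 without blood KO 02; 0 in globin-poor libraries, against 9 and 4; and 0 in globin-rich libraries, against 11, 49, 28 (library size alone), 389 (without blood WT 01) and 4 (without blood KO 02).

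No KO over WT value of a member was called under any alternative. Of the values given above, these changed sign. Library size alone gave 0.44 for Irf4 in spleen, −0.10 for Pou2af1 in blood and 0.62 for Irf4 in the difference between tissues. Kind as a term gave 0.18 for Derl3 and −0.019 for Pou2af1 in blood. For members not given above, library size alone also turned Sdc1 (−0.074) and Irf4 (−0.18) in blood, Sdc1 (0.86) and Pou2af1 (0.68) in the difference between tissues and Irf4 (0.047) in globin-rich libraries, and kind as a term turned Sdc1 (−0.15) in spleen, Irf4 (−0.083) and Mzb1 (0.11) in blood and Pou2af1 (0.039) in the difference between tissues. Among all libraries, those labelled spleen and globin-rich or blood and globin-poor alone gave −0.34 for Jchain, −0.11 for Sdc1, −0.074 for Xbp1, −0.055 for Prdm1, −0.30 for Irf4 and 0.45 for Tnfrsf17. The reverse set, in which label and marker genes match, gave −5.1e-05 for Prdm1 and −0.045 for Irf4. Tnfrsf17 was 0.00603 without a filter. Pou2af1 in globin-poor libraries was 0.018 with genotype alone as a term. With 1 library left out, the values ran from −0.31 to 0.0895 (Irf4, spleen), −0.71 to 0.11 (Irf4, difference between tissues), −0.031 to 0.46 (Prdm1), −0.036 to 0.24 (Irf4) and −0.39 to 0.54 (Tnfrsf17) over all libraries, and −0.24 to 0.56 (Jchain, globin-poor).

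For spleen over blood, globin-rich libraries alone gave −0.60 for Sdc1, −0.47 for Prdm1, −0.57 for Irf4 and −0.36 for Pou2af1, and globin-poor libraries alone gave 0.55 for Tnfrsf17. With 1 library left out, values ran from −0.56 to 0.19 (Tnfrsf17), −0.24 to 0.40 (Fkbp11) and −0.041 to 0.22 (Pou2af1). For all changes given here the cause was not tested.

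Groups shared 2 replicate numbers in each tissue, with no label tying a number to 1 mouse. Same-numbered residuals correlated at 0.54 (spleen 01) and 0.69 (blood 04), where both libraries were globin-poor, and at −0.56 (spleen 04) and −0.47 (blood 03), where the kinds differed. With the replicate block, 3 members (Jchain, Derl3 and Mzb1) were called between the kinds, where 8560 of 19116 genes were. No member was called in the other comparisons. With the block Fkbp11 was −0.28 for spleen over blood and Tnfrsf17 0.32 for KO over WT. The block could not be fitted in globin-rich libraries. Globin-rich libraries hold 8 to 21 counts of Jchain and at most 4 of Derl3, which limits any comparison of these genes within them.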
